A study of Homo sapiens with 38 samples.

Results

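In stimulated Jurkat cells, 360 of the 26205 regions on the BHLHE40 peak list were at least 3000 bp wide, and these wide regions are described here. They were chosen by the width alone, end minus start of each line of the list, and 1.37% of lines met it. The wide regions held 7.19% of all bases on the list, 1.73 Mb. A line is 1 row of a peak list, and each line is 1 region. Widths ran from 3000 bp to 16389 bp with a median of 3776.5 bp. Of the 360, 95 reached 5000 bp and 22 reached 10000 bp. Just inside the threshold stood the regions at P4HB (3000 bp), over the pseudogene BOLA2P3 (3001 bp) and at SLC25A11 and RNF167 (3003 bp). Just outside stood those at AKAP8 (1 bp under the threshold), PRR7 (2994 bp) and GGPS1 (2991 bp).

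Jurkat is an established T-cell acute lymphoblastic leukaemia line. The series holds 38 chromatin immunoprecipitation sequencing (ChIP-seq) samples in 19 groups of 2, all labelled as stimulated. The 3 lists used here came from the Ctrl_LV groups, cells carrying the control lentivirus, after immunoprecipitation of BHLHE40, GATA3 or the acetylated histone H3K27ac. The other 16 groups were not analysed here. The cells had received 50 ng/ml of the phorbol ester PMA and 500 ng/ml of the calcium ionophore ionomycin, for 5 hours per the sample characteristics but 2 hours per the treatment protocol. The labels' protocol describes guide RNA lentivirus and puromycin selection for the sgCtrl_P258 and sg70_P260 cells, which are other groups. What the Ctrl_LV virus carried is not given in the sources used here. The files give 1 list for the 2 samples of a group, so no spread between samples can be given, and the sequencing depth is unknown. The intervals printed below are 95% Wilson intervals over regions and cover counting error only. Neighbouring regions are not independent, and no test between classes was made. The cell type was checked on H3K27ac: all 8 T-cell marker genes had an H3K27ac line in their record, among them CD3D, CD3E, CD2 and LCK. Only 3 of 15 marker genes of other cell types had one.

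BHLHE40 is a basic helix-loop-helix transcription factor that binds the E-box CACGTG as a dimer and mostly represses transcription. It is part of the feedback of the circadian clock and is induced when T cells are activated. GATA3 is the zinc-finger factor that directs T-cell development and binds GATA motifs. Acetylation of histone H3 at lysine 27 marks active promoters and enhancers. A sequence-specific factor usually gives narrow peaks, since it contacts a short stretch of DNA.

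The following stretches show what lay under a wide region's summit (its highest point) at a gene start, with and without the E-box. They are 4 of 96 windows in which the summit of a wide region fell in the 250 bases before a start listed by RefSeq (GRCh38.p14), a set that covers 86 genes. Of the 96 windows, 17 windows of 15 genes held CACGTG. The 3 with the motif were taken among windows lying outside every gene record, and IL2 was added as an activation gene without it. Each is read 5′ to 3′ on the gene's strand and ends just before the start. Capitals mark CACGTG, which reads the same on both strands.
HERPUD1: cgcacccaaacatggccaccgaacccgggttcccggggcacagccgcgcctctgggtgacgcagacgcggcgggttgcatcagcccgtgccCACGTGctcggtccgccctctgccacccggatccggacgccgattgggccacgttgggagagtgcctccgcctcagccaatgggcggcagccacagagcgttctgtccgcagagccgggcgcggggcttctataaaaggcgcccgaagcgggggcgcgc
RPL13A: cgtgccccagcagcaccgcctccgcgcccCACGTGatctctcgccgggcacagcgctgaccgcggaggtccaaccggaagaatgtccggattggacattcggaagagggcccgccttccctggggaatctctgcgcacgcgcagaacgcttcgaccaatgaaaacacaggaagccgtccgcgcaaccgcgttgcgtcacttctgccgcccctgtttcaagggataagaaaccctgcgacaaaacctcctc
ATF4: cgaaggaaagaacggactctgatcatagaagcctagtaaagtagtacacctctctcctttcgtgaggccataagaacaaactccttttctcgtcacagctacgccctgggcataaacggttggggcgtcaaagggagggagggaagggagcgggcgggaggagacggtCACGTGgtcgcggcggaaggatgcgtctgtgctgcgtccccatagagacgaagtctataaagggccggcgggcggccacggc
IL2: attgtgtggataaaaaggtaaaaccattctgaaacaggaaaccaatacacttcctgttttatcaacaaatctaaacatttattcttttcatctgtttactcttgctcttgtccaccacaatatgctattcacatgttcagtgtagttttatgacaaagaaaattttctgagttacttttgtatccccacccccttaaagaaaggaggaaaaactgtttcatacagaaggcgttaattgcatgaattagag
HERPUD1, a membrane protein of endoplasmic reticulum quality control, lies on the plus strand and its window is chr16:56931892-56932141. Its E-box begins at base 92 and the BHLHE40 summit at base 138. The window of RPL13A, a protein of the large ribosomal subunit, is chr19:49487358-49487607 on the plus strand, with the E-box at base 30 and the summit at base 141. That of ATF4, the transcription factor of the integrated stress response, is chr22:39520309-39520558 on the plus strand, with the E-box at base 169 and the summit at base 89. IL2, the T-cell growth factor, is on the minus strand, its window is chr4:122456726-122456975 and the summit lay at base 99. The IL2 window had 33.6% G and C, against 71.6% for HERPUD1.

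Over the listed promoter windows of 300 bases (250 before and 50 after the start), CACGTG occurred in 46 of 339 met by a wide region, 13.6% (10.3% to 17.6%). The share was 11.0% of 5486 windows met by BHLHE40 regions of middle width (1000 bp to under 3000 bp) and 12.3% of 3121 met by narrow regions (under 1000 bp). It was 6.10% of 13132 windows with no BHLHE40 line and 8.32% of all 22078 windows. The interval for wide regions overlaps those for both narrower classes and lies above the one for windows with no line (5.70% to 6.52%). The looser E-box CANNTG, which includes CACGTG and was searched on both strands, occurred in 63.1% of the wide-region windows and 65.1% of all. GATAA, on either strand, occurred in 15.0% and 18.7%. TGANTCA, the AP-1 site, occurred in 4.13% and 6.16%. Base composition differed as well, with a median of 64.3% G and C in the wide-region windows and 58.7% in windows with no line, and its part in the motif shares was not tested. Within 50 bp of the summit, CACGTG occurred in 8 of the 71 wide regions where this stretch lay wholly in a listed window, 11.3% (5.82% to 20.7%), against 7.51% in middle-width regions and 7.43% in narrow regions. A match is only a description of the letters.

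Wide regions were also high in signal, the authors' measure of enrichment for each peak. The median deposited signal value was 18.4 in wide regions, 12.3 in middle-width regions (n = 7503) and 8.47 in narrow regions (n = 18342). Width and signal come from the same peak calls, so this is a description. The range within the wide class was broad, from 1.496 to 149. The lowest value belonged to a 3075 bp region on the mitochondrial chromosome, over both ribosomal RNA genes and ND1, a subunit of respiratory complex I. The highest was inside the record of CABCOCO1, in a region of 3271 bp. Next came a region of 7331 bp in the T-cell receptor beta locus TRB (103), the region over DUSP2 (103), 1 of those in BACH2 (102) and that of WDR74 (86.8), whose region also overlaps the U2 small nuclear RNA gene RNU2-2. These 5 strongest regions all held GATA3 lines and H3K27ac lines.

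The 10 widest regions ran from 12002 bp to 16389 bp. The widest, 16389 bp, covered 94.6% of the record of SFPQ, a splicing factor of paraspeckles. Regions of 15198 bp and 15026 bp covered the whole records of EIF5, a translation initiation factor, and NCL, nucleolin, the major protein of the nucleolus. The region at TSPOAP1 was 13890 bp wide and also overlapped the microRNA host MIR142HG and MIR142, a microRNA of blood cells. HNRNPH1, a splicing regulator, had 13723 bp and RBM39, another, 13323 bp. ACTB, cytoplasmic beta-actin, was wholly covered by 12800 bp, CD69 by 12303 bp, HSP90AB1, a cytosolic chaperone, by 12120 bp and the RNA helicase DDX5 by 12002 bp. Signal did not follow width in this order: it was 24.9 at SFPQ, 17.7 at EIF5, 18.7 at NCL, 55.6 at TSPOAP1, 12.1 at HNRNPH1 and 50.2 at ACTB.

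The position of the summit within the region varied with width. It lay within 20% of the region's width of an edge in 33.6% of wide regions (28.9% to 38.6%), against 9.02% in middle-width regions and 0.889% in narrow regions. Summits spread evenly over a region would give 40%. Among the 22 regions of at least 10000 bp the share was 77.3% (56.6% to 89.9%). The edge zone grows with the region, so a summit at a fixed distance from an edge falls in it more easily in wider regions. The shares can therefore rise with width by themselves. At SFPQ the summit stood at 91.2% of the width counted from the low coordinate, at NCL at 90.4%, at EIF5 at 6.81% and at CD69 at 88.9%. These summits were within 1 kb of 1 end of the gene record while the region ran on across the rest of it.

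**Figure D1:**
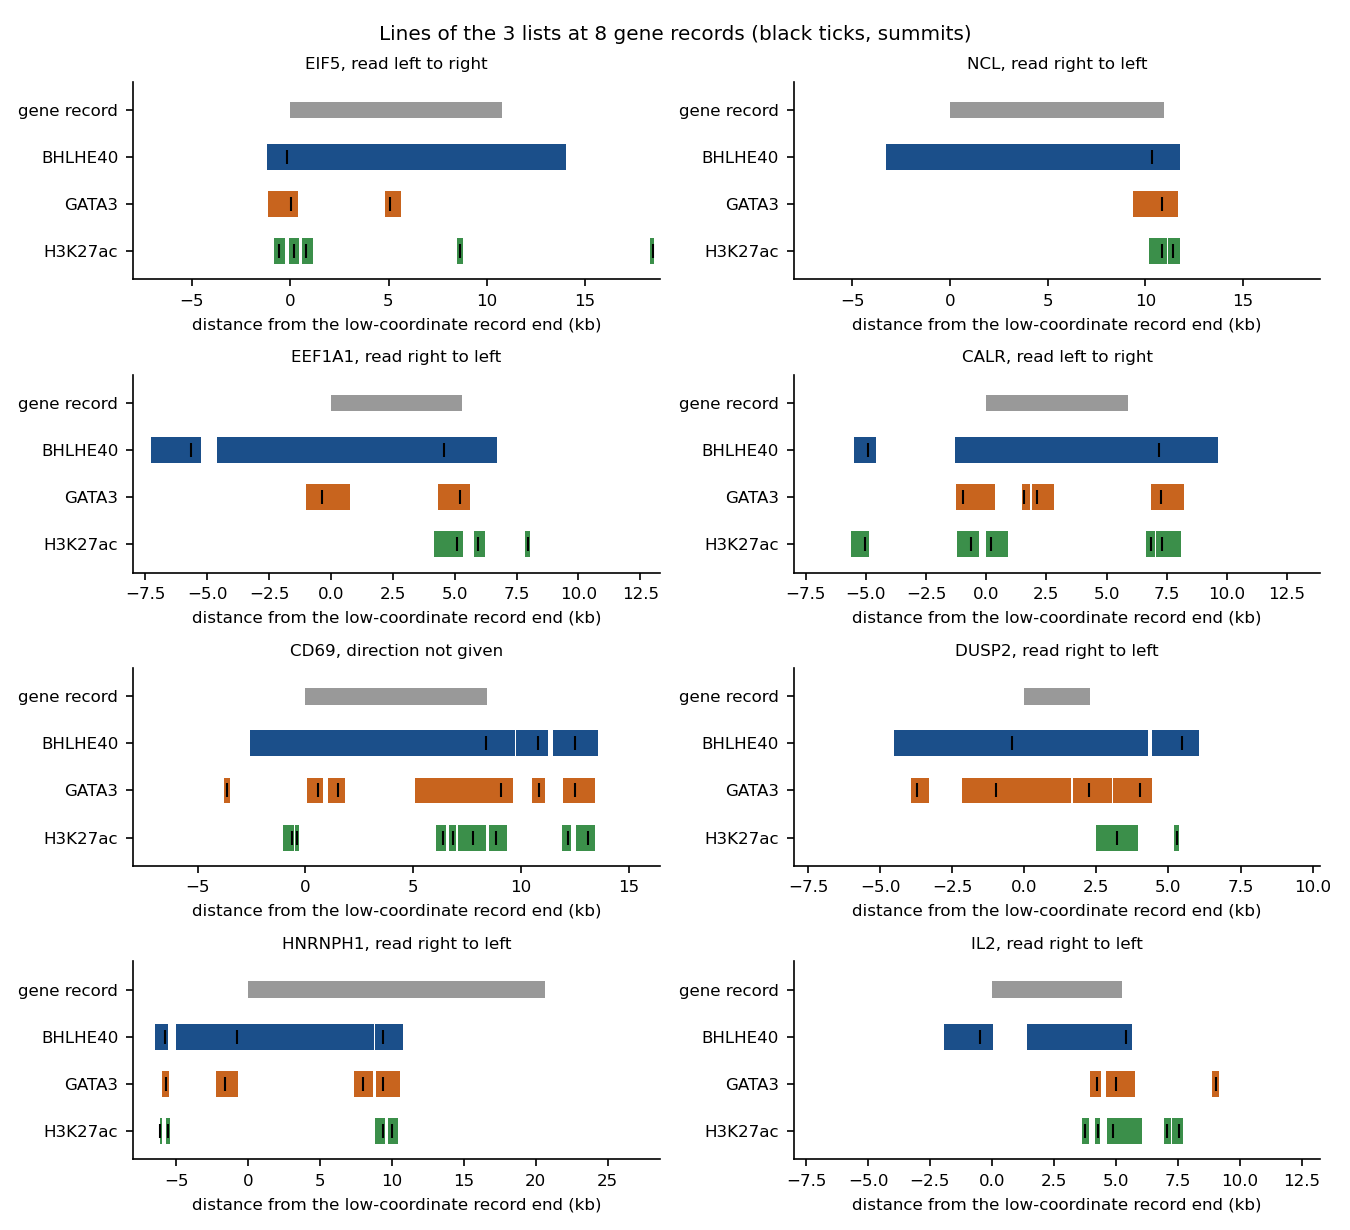
Lines of the BHLHE40, GATA3 and H3K27ac lists at 8 gene records, as distance in kb from the low-coordinate end of the record (grey bar), with black ticks at the summits. At EIF5 and NCL the BHLHE40 line spans the whole record while the GATA3 and H3K27ac lines are short and lie mostly at the start.

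A gene record is the span from the first to the last base of a gene in the RefSeq table, with exons and introns not told apart. Wide regions met 358 of 20050 protein-coding records, which is 1.79% of all such records, and wholly covered 69, or 0.344%. Of all 59716 gene records of any kind, 1.02% were met. Among the 358 records, 117 were covered for at least 50% of their length and 134 for under 10%, with a median of 19.2%. The records met were shorter than most, with a median length of 12710.5 bp against 24093 bp for all protein-coding records and 35308 bp for those met only by narrower BHLHE40 regions. A short record is more easily covered, and a long one more easily met.

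Seen from the regions, 322 of 360 overlapped a protein-coding record, 89.4% (85.8% to 92.2%), and 54 contained at least 1 whole record, 15.0% (11.7% to 19.1%). For middle-width regions these shares were 83.0% and 0.573%. A wider region meets and covers more records by its length alone. Counted by bases, protein-coding records held 65.3% of wide regions, 63.5% of middle-width regions and 56.7% of narrow regions. Of the 54, 42 held 1 whole record, 9 held 2 and 3 held 3. The most covered record of a region was covered for a median of 18.1% (order-statistic interval 13.9% to 21.9%). In regions of at least 5000 bp this median was 75.8%, and in those of at least 10000 bp it was 100%. Only 9 wide regions met no gene record of any kind. The summit lay within 1 kb of an end of a protein-coding record in 202 wide regions, 56.1% (50.9% to 61.1%), the same share as the 56.1% in middle-width regions and above the 20.8% in narrow regions.

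Gene starts and strands were taken from the RefSeq promoter table, which lists a start for 79.0% of protein-coding records. A protein-coding start listed there was held by 203 wide regions, 56.4%. Among 136 regions with the start of a single gene and no whole record, the median reach was 1113.5 bp upstream of the start and 2365 bp downstream, and 101 (74.3%) reached farther downstream. Where a region held several listed starts of the gene, the most upstream was used, which by itself favours the downstream reach. Their summit lay within 1 kb of the start in 100 of 136. Among 35 wholly covered records of at least 1000 bp with a listed start, the region began a median of 875 bp before the start and went 2206 bp past the record's end. It reached farther past the end than before the start in 30 of 35. The summit was within 1 kb of the start in 24 of them and within 1 kb of the end in 5. The longest reach past the end of a gene whose region held no other whole record was 4819 bp at RPS12, a protein of the small ribosomal subunit, where the region began 1715 bp before the start. At EEF1A1, the translation elongation factor that carries transfer RNA to the ribosome, the region of 11319 bp began 1443 bp before the start and ended 4593 bp past the end. At EGR1, an immediate-early zinc-finger factor, it began 1766 bp before the start and went 4115 bp past the end, with the summit 4243 bp after the start.

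The 3 lists had different shapes around these starts. At 1 kb upstream, 68.5% of the 203 regions with a start had a BHLHE40 line, and at 1 kb downstream 87.2%. At 3 kb the shares were 12.8% upstream and 39.9% downstream, and at 5 kb they were 7.88% and 23.6%. H3K27ac lines were found 0.25 kb downstream in 82.8%, at 1 kb downstream in 44.3% and at 3 kb downstream in 4.43%. GATA3 lines were found at the start in 69.0%, at 1 kb downstream in 35.5% and at 3 kb downstream in 9.85%. The start used for each region was the one nearest its summit.

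**Figure D2:**
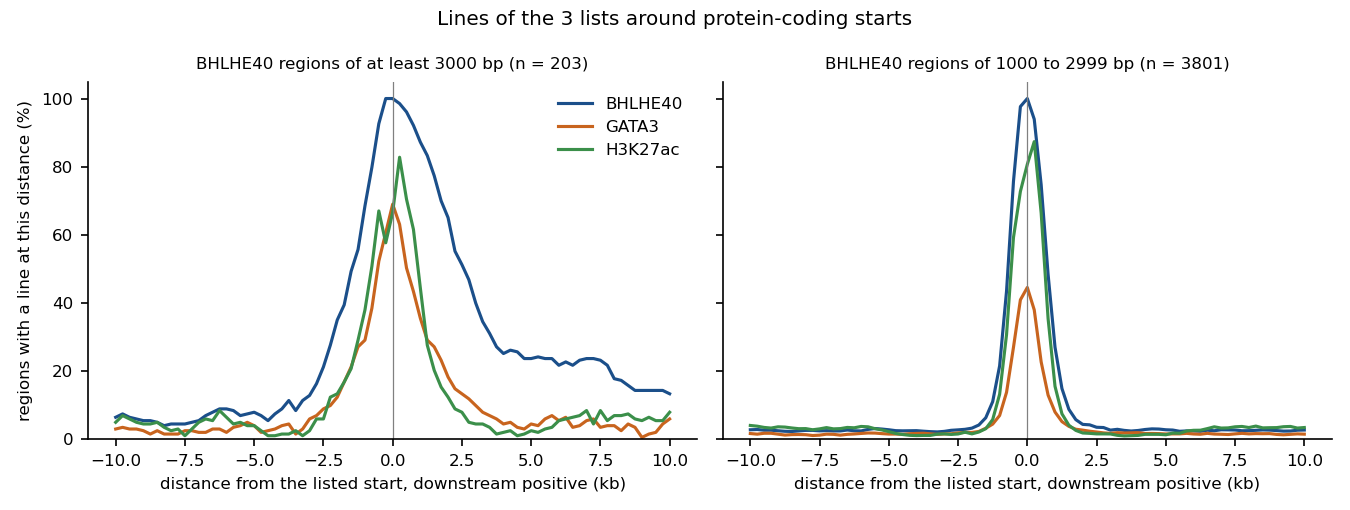
Share of BHLHE40 regions that have a line of each list at a given distance in kb from the listed protein-coding start, for 203 regions of at least 3000 bp (left) and 3801 of middle width (right). On the left the BHLHE40 curve falls more slowly downstream than upstream and stays at 23.6% at 5 kb, where H3K27ac is at 2.46%. The regions on the left were chosen for wide BHLHE40 lines, so a broad BHLHE40 curve follows in part from the choice.

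GATA3 lines were present in most wide regions. A GATA3 line overlapped 260 of 360 by at least 1 bp, 72.2% (67.4% to 76.6%), against 53.0% of all BHLHE40 regions, 56.4% of middle-width regions and 51.2% of narrow regions. A wider region meets more lines by its length alone. Per 10 kb of BHLHE40 region there were fewer GATA3 lines in wide regions, 2.29, than in middle-width regions, 3.95, or in narrow ones, 8.03. GATA3 lines took up 31.8% of the bases in wide regions, 40.0% in middle-width regions and 46.0% in narrow regions. The BHLHE40 summit is a single point, so the region's own length does not enter, although the width of the GATA3 lines does. It was inside a GATA3 line in 61.1% of wide regions (56.0% to 66.0%). The share was 53.6% in middle-width regions (52.4% to 54.7%) and 50.9% in narrow regions (50.2% to 51.6%). Where a GATA3 line was present, its nearest summit was a median of 159 bp from the BHLHE40 summit in wide regions, 64 bp in middle-width regions and 27 bp in narrow regions. Only lines overlapping the region were used, so this distance can grow with region width by itself. Lines per 10 kb can likewise fall with it.

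A single GATA3 line was found in 149 wide regions, 2 lines in 88, 3 in 18 and 4 in 5. The 5 regions with 4 lines were at TXNRD1, a thioredoxin reductase, CALR, a calcium-binding chaperone, DUSP2, HSPA5, the major chaperone of the endoplasmic reticulum, and IER3, an immediate-early response gene. GATA3 lines covered 49.4% of the region at TXNRD1, 39.4% at CALR, 79.3% at DUSP2, 67.6% at HSPA5 and 62.0% at IER3. At EIF5 the 2 GATA3 lines were 1531 bp and 835 bp wide and covered only 15.6% of the region. Counted by region, wide BHLHE40 regions had 399 overlaps with the 29009 lines of the GATA3 list. On that list 39 lines reached 3000 bp, and 22 of them overlapped a wide BHLHE40 region, which longer lines do more easily. The widest, 6771 bp, was at TSPOAP1, and others lay over MALAT1 (6274 bp), TRB (5846 bp), PKM (4784 bp) and CD69 (4524 bp).

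H3K27ac lines overlapped 326 of the 360, 90.6% (87.1% to 93.2%), against 76.4% of all BHLHE40 regions, 95.6% in middle-width regions and 68.3% in narrow regions. With a deposited −log10 q of at least 5 for the H3K27ac line the count was 291, 80.8% (76.5% to 84.6%). The lines filled a smaller part of wide regions: 31.7% of their bases, against 66.5% in middle-width regions and 50.3% in narrow regions. In regions of at least 5000 bp they filled 18.4%. The BHLHE40 summit was inside an H3K27ac line in 56.7% of wide regions (51.5% to 61.7%) and 75.6% in middle-width regions. The widest line on the H3K27ac list was 2932 bp, so none could fill a wide region alone. Both kinds of line were found in 256 wide regions (71.1%), and neither in 30 (8.33%).

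The 2 lists varied with where the region lay on a gene. Each wide region was placed in 1 of 6 classes by the protein-coding records it met. The 54 that held a whole record had GATA3 lines in 92.6% (82.4% to 97.1%) and H3K27ac lines in 100% (93.4% to 100%), with a median signal of 23.4. The 155 with a start but no whole record had them in 80.6% and 98.7%, with a median signal of 19.5. The 46 that met only the end of a record had them in 34.8% (22.7% to 49.2%) and 63.0% (48.6% to 75.5%), with a median signal of 10.2. The 47 inside a record had them in 57.4% and 78.7%, with a median signal of 10.6. The intervals of the whole-record and end-only classes do not overlap for either list, but they cover counting error only and are no test. Bases differed as well, with GATA3 lines over 39.1% of start regions and 10.0% of end-only regions, and H3K27ac lines over 45.9% and 11.8%. Median width was 6450 bp in whole-record regions, 3536 bp in start regions and 4179.5 bp in end-only regions. Signal and width thus differed between these classes too, and their part in the shares was not tested. The remaining regions were 20 at a record end whose direction is not given and 38 with no protein-coding record.

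**Figure D3:**
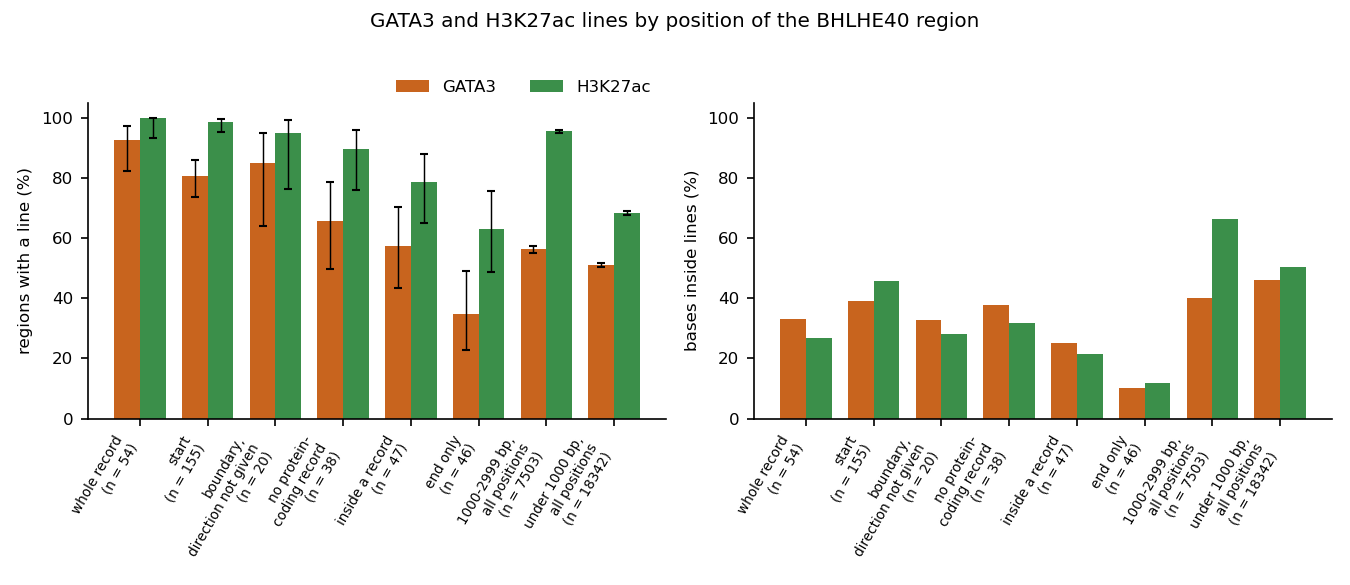
Share of BHLHE40 regions with a GATA3 or H3K27ac line (left, with 95% Wilson intervals) and share of their bases inside such lines (right), for the 6 position classes of wide regions and for the 2 narrower width classes. GATA3 lines were found in 92.6% of whole-record regions and 34.8% of end-only regions.

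Among end-only regions, at HNRNPH1 the region of 13723 bp covered 42.4% of the record from its end, held 2 GATA3 lines over 21.3% of its bases and had no H3K27ac line. A separate BHLHE40 line of 2012 bp with a signal of 16.4 lay next to it in the same record and held H3K27ac lines. At NR4A3, an orphan nuclear receptor of the immediate-early response, a region of 6909 bp with a signal of 14.5 covered the end and held no line of either list. It was the widest of the 30 with neither. The next were 1 inside RBM39 (6090 bp), 1 on chromosome 16 with no gene record (5609 bp), 1 inside DTNBP1 (5306 bp) and 1 at the end of LIMD2 (5118 bp). The median signal of the 30 was 7.55 and their highest was 14.5, against a median of 21.0 for the 260 regions with a GATA3 line.

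Most records met by wide regions met only 1, and some met several. Another BHLHE40 line lay within 1000 bp of 137 wide regions (38.1%), so a wide region can be 1 of several lines in a row. Of the 358 records, 39 met at least 2 wide regions. Those of EIF4G2, a translation factor, IRF1, the interferon regulatory factor, and CCNL1, a cyclin of splicing factors, had 2 each, which together covered 93.1%, 98.5% and 84.7% of the record. TRA2B, a splicing activator, had 3 that covered 56.4%, with signals of 9.89 at the end, 5.17 inside and 22.2 at the start. Only the region at the TRA2B start had an H3K27ac line.

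BACH2, a transcriptional repressor that maintains naive and memory-like lymphocyte states, had the most, with 15 wide regions among the 50 BHLHE40 lines that met its record. The record is 370316 bp long, and wide regions covered 16.5% of it. Widths ran from 3032 bp to 7894 bp, and signals from 5.61 to 102 with a median of 8.40. The summit at the start lay 19 bp upstream with a signal of 24.9, the strongest was 22.2 kb into the gene, and another of 38.3 was 62.7 kb in. The 5 regions in the first 100 kb all held GATA3 lines. Beyond 100 kb there were 10 wide regions, with signals from 5.61 to 14.8, of which 3 held GATA3 lines and 7 did not. GATA3 lines covered 73.4% of the region at 215 kb, 24.7% of that at 164 kb and 16.5% of that at 128 kb. H3K27ac lines were found in 13 of 15, and with a −log10 q of at least 5 in 7. Chromosome 6, which carries BACH2 and the main histone clusters, held 53 wide regions, 14.7% of them, against 6.24% of all BHLHE40 regions.

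**Figure D4:**
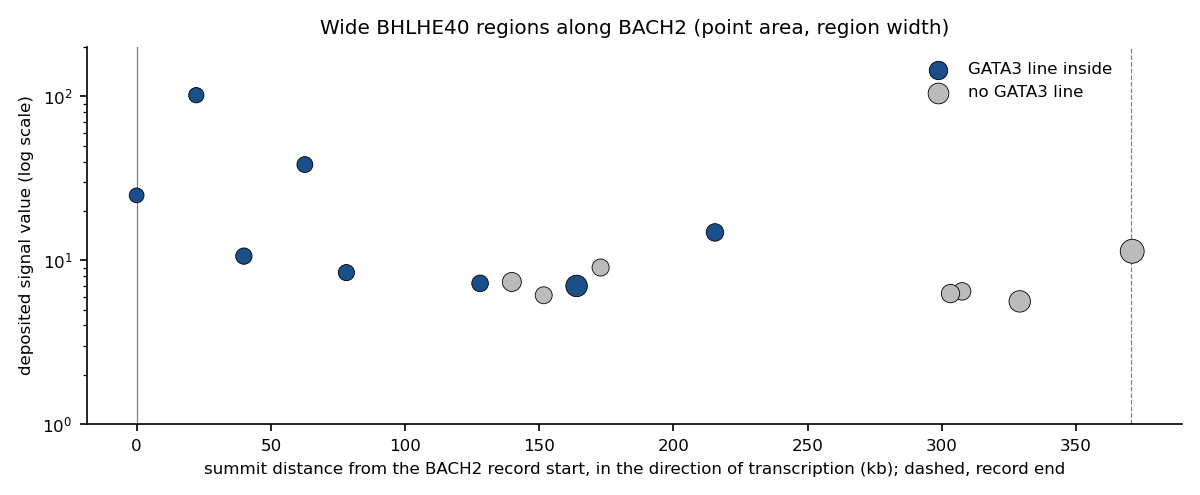
The 15 wide BHLHE40 regions of BACH2 by summit distance from the record start in kb and deposited signal value (log axis), with point area for width and colour for a GATA3 line inside. The 5 regions in the first 100 kb all held a GATA3 line, and the strongest signal, 102, was at 22.2 kb.

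Gene lists were compared by the share of their records met by a wide region, beside the 1.79% of all protein-coding records. The lists were drawn up with earlier results of these data known, and many of their genes meet BHLHE40 lines of any width, so the counts describe and support nothing further. The cytoskeletal and housekeeping list had 18 of 31 genes met (58.1%), among them the wholly covered ACTB, EEF1A1, HSPA8, PTMA and TMSB4X. All 31 met a BHLHE40 line of some width. The splicing list of SR and hnRNP proteins had 12 of 21 (57.1%). HNRNPA1 and SRSF2 were wholly covered, by 10142 bp and 7474 bp. Coverage was 52.0% at SRSF6 and 16.7% at SRSF7. Of 86 cytosolic ribosomal protein genes 16 were met (18.6%), whereas 83 met some BHLHE40 line. Among those wholly covered were RPS12, RPL10A, RPS27, RPL10, RPS2 and RPL41, and RPL3 was covered for 97.1%.

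Hosts of abundant noncoding RNAs had 9 of 15 met. MALAT1, a nuclear long noncoding RNA, was wholly inside a region of 11476 bp with a signal of 55.5, of which GATA3 lines covered 66.1% and H3K27ac lines 21.8%. NEAT1, the scaffold of paraspeckles, was met at 1 end only, by 6995 bp that covered 23.9% of its record. SNHG1, SNHG3 and SNHG5, hosts of small nucleolar RNAs, were wholly covered, and GAS5 was covered for 99.7%. Over all genes, 65 of 1199 snoRNA records (5.42%) were met and 112 of 18303 long noncoding RNA records (0.612%). Many snoRNA genes lie in introns of the hosts and ribosomal genes above and so are not separate cases. Of the histone genes, taken by symbol (H1, H2A, H2B, H3 and H4 genes), 29 of 73 (39.7%) were met. They include H1-10, a linker histone made outside replication too. A single region of 6354 bp held H3C12, H2AC17 and H2BC17, and another of 5922 bp held H3C4, H2AC7 and H2BC7. GATA3 lines covered 77.7% and 78.6% of these 2 regions. Neighbouring histone genes that share a region are not separate cases.

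Genes of T-cell activation were met unevenly. The immediate-early and AP-1 list had 10 of 25 met (40.0%): EGR1, JUNB and IER3 were wholly covered, with signals of 49.9, 39.9 and 57.6. IER2 was covered for 75.8%, JUN for 69.5%, JUND for 60.5%, KLF10 for 60.1% and FOS, whose protein pairs with JUN, for 39.2% with a signal of 7.63. The nuclear receptor NR4A1 was met by 5193 bp over 9.56% of its record. Of the kinase feedback and messenger RNA decay list 6 of 17 were met (35.3%). DUSP2, a phosphatase of MAP kinases, was wholly inside a region of 8807 bp with 4 GATA3 lines and a single H3K27ac line. Coverage was 88.7% at ZFP36L1 and 80.7% at BTG1, and 2.06% at SPRED2, whose record is 125425 bp long.

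Other T-cell lists had lower shares at 3000 bp than the lists above. Where any gene was met the share was 4.76% to 9.38%, on few genes, beside 1.79% of all protein-coding records. In the NF-kB feedback list only NFKBIA, the inhibitor of NF-kB, was met (1 of 15), for 86.6% of its record. Among T-ALL and T-cell transcription factors RUNX1, MYB and STAT5A were met (3 of 32), and among T-cell receptor signalling genes PTPRC (1 of 21), which codes for the phosphatase CD45. Of the clock list BHLHE40 itself was met (1 of 17), by a region of 3273 bp with a signal of 38.5 that covered 25.5% of its record. No gene of the calcium and NFAT list was met (0 of 15, upper Wilson bound 20.4%). None of the markers of B, myeloid, erythroid and liver cells was met (0 of 20, upper bound 16.1%). The 8 T-cell marker genes used to check the cell type were not met either. Lists this small cannot tell 0 from the 1.79% of all protein-coding records. Most genes of the T-cell lists did meet narrower regions: 14 of 15 calcium and NFAT genes and 20 of 21 T-cell receptor genes met some BHLHE40 line. Most of these low counts depended on the threshold. The markers of other cell types stayed at 0 of 20 at 2000 bp, and the activated surface and cytokine list, described below, at 2 of 27. At a width of at least 2000 bp, 6 of 15 NF-kB genes and 7 of 21 T-cell receptor genes were met. So were 7 of 32 transcription factors, 3 of 17 clock genes and 2 of 15 calcium and NFAT genes, beside 6.17% of all protein-coding records.

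**Figure D5:**
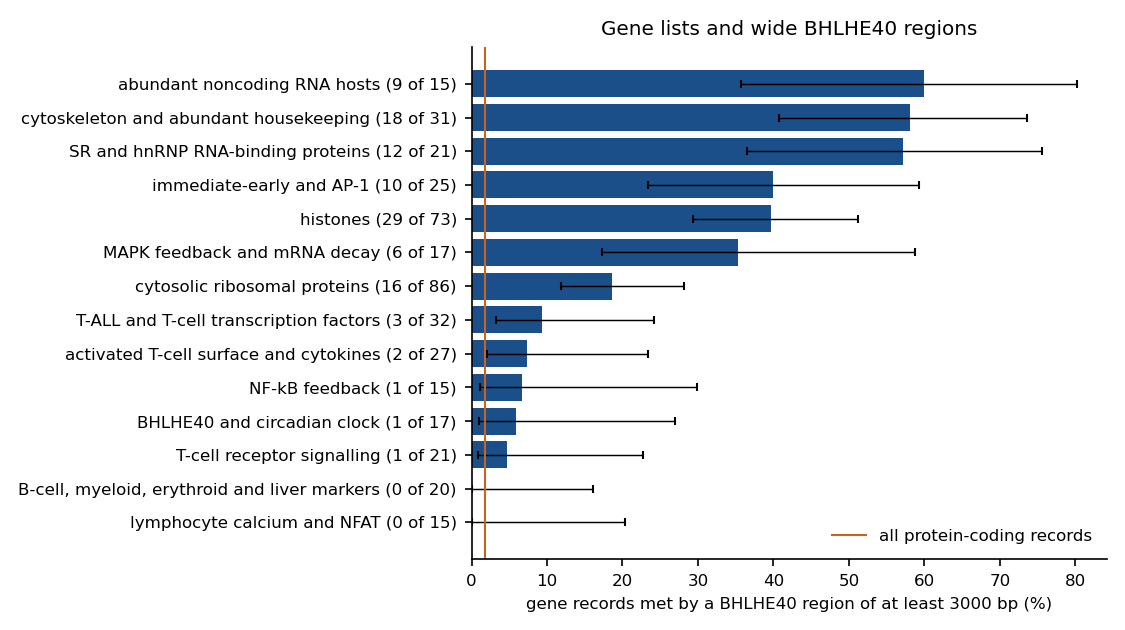
Share of the gene records of 14 lists met by a BHLHE40 region of at least 3000 bp, with 95% Wilson intervals, beside the 1.79% of all protein-coding records (vertical line). Noncoding RNA hosts, housekeeping and splicing genes reach 57.1% to 60.0%. The calcium and NFAT list and the marker list of other cell types have none, with upper bounds of 20.4% and 16.1%, above the 1.79%. Neighbouring histone genes can share a region, which the intervals ignore.

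Among activated T-cell surface proteins and cytokines, CD69 and IL2 were met, 2 of 27. CD69 is a lectin-like membrane protein that appears early after activation. Its region, chr12:9749918-9762220, ran from 2568 bp before the low-coordinate end of the record to 1319 bp past the other end. The 3 GATA3 lines of 748 bp, 789 bp and 4524 bp covered 49.3% of it. Its 6 H3K27ac lines covered 29.2% and lay in groups at both ends. A gap of 45 bp separated the region from the next BHLHE40 line of 1460 bp, and 231 bp beyond that lay a line of 2104 bp with a signal of 99.2, against 34.4 for the wide region. The IL2 region, chr4:122452889-122457130, was weaker, with a signal of 8.73. It reached 405 bp before the start and covered 73.0% of the record, and held 2 GATA3 lines over 34.9% of its bases and 3 H3K27ac lines. Of each list, 1 line spanned the start and the others lay wholly inside the record.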

How the data were processed

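The peak lists are the authors' files. The submitters' processing notes name bcl2fastq 2.20, MACS2 and the build hg38 with no roles, and the aligner, peak-calling settings and use of input controls are not given in the sources used here. The BHLHE40 and GATA3 lists carry an IDR limit of 0.05 (irreproducible discovery rate between 2 samples) in their deposited names, whereas the name of the H3K27ac list says that it is pooled. The deposited columns used were positions, the score, the signal value and the −log10 q-value, which served only to describe or filter lines within a list. The −log10 p-value column was not used.

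Lines were overlapped by at least 1 bp with each other and with RefSeq GRCh38.p14 gene records. Per protein-coding start, sequence came from the RefSeq promoter table. The members and gene lists were chosen with earlier results of these data known. The genes named were those of the 10 widest regions, the 5 strongest, the 5 most covered records of at least 2000 bp, the 5 regions with the most GATA3 lines, the 5 widest with neither mark, 3 on each side of the threshold and up to 8 per gene list. Other names were chosen after their values were seen. The overlap functions were tested on simulated data. Calculations ran in Python 3.11.15 (pandas 2.3.3, numpy 2.4.6 and scipy 1.17.1), with figures from matplotlib 3.10.9.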

Additional observations from a re-analysis of the deposited data

How the results depend on the processing

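The values depended mostly on the width threshold. From a width of at least 2000 bp to one of at least 5000 bp, the median share of the most covered record went from 6.82% to 75.8%, and regions with a whole record from 5.87% to 37.9%. H3K27ac bases went from 46.2% to 18.4%, and genes of the lists that were met from 187 to 49, against 108 of 415 at 3000 bp. At 2000 bp, 93.7% of regions had an H3K27ac line, and at 5000 bp 82.1% had a GATA3 line. Counting all gene records instead of protein-coding ones gave 97.5% of regions with a record, a median of 28.7% for the most covered, 25.6% with a whole record and 63.9% with a summit within 1 kb of a record end. A GATA3 score of at least 830 (an IDR of 0.01) left 64.2% of regions with a GATA3 line, and an H3K27ac −log10 q of at least 5 left 80.8% with an H3K27ac line. The other 28 of 44 values stayed within the 95% interval computed for the reported value. Among them are those for BHLHE40 scores of at least 830 and for autosomes. These keep 347 and 350 of the same 360 regions, so they could hardly move and say little about robustness. For shares of bases, the interval was computed as if the share were one of regions, so it is only a rough band. No paired analysis was possible because the 2 samples of a group share 1 deposited list, and for the same reason no sample could be left out. Width depends on peak-caller settings and depth, which are not known.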

Other observations

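Wide BHLHE40 regions also lay on antigen-receptor genes, which have no protein-coding record in the gene table. The T-cell receptor beta locus TRB held 3 of them, with widths of 4841 bp, 8666 bp and 7331 bp along the chromosome and signals of 35.5, 43.3 and 103. The first 2 met joining segments of both clusters and the constant gene TRBC1. GATA3 lines covered 79.6%, 51.1% and 89.8% of the bases of the 3. The alpha locus TRA held 1, of 3781 bp over the joining segments TRAJ1 and TRAJ2, with a signal of 6.88, 3 H3K27ac lines over 71.7% of its bases and no GATA3 line. In all, 14 of 98 joining-segment records were met by a wide region, and neighbouring segments share a region.

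Some wide regions lay on hosts of microRNAs. A region of 4725 bp in MIR181A1HG had a signal of 85.5 and GATA3 lines over 88.1% of its bases. One of 3053 bp in MIR223HG had a signal of 78.7 and GATA3 lines over 41.1%. Regions at MIR21, 7571 bp at the end of VMP1 with a signal of 11.5, and at MIR17HG, 3229 bp with a signal of 7.05, were weaker, and the latter held no line of either list.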
